A study of Mus musculus with 9 samples.

Results

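The transcripts described here are those of 10 clock genes, 9 of which encode repressors of the circadian clock. The repressors are Bhlhe40, Bhlhe41, Per1, Per2, Per3, Cry1, Cry2, Nr1d1 and Nr1d2, and the list also holds Dbp, an activator whose own transcription is under clock control. They are 10 of the 22396 genes for which counts were deposited, and all 10 were found by symbol. The list was drawn up with fold changes of these same libraries in view, Bhlhe41 first among them, so the levels and differences of the 10 genes are given as descriptions. No p-value is printed for any of them, and counts of those past a threshold stand beside the share of all genes without being read as a result.

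The mammalian clock is a feedback loop in which CLOCK and BMAL1 (gene Arntl) bind E-boxes and drive the genes of their own repressors. PER and CRY proteins return to block CLOCK and BMAL1, BHLHE40 (DEC1) and BHLHE41 (DEC2) compete with them for E-boxes, and the REV-ERB receptors (genes Nr1d1 and Nr1d2) repress Arntl while ROR receptors activate it. DBP binds D-boxes in genes such as the Period genes, and NFIL3 represses through the same element. In melanocytes BHLHE40 and BHLHE41 are also known as regulators around the lineage factor MITF.

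The cells were B16F10, a mouse melanoma line. All 3 groups stably expressed FLAG-tagged RIG-I, a cytosolic sensor of RNA, and differed in a hairpin from a lentivirus. It was a control (shCtr) in 1 group and targeted Osgep, whose protein makes the t6A modification of tRNA, in the groups shOSGEP#1 and shOSGEP#2. Transduced cells were selected with puromycin, and the 3 replicates of a group are described as independent experiments. RNA that came down with FLAG-RIG-I was depleted of ribosomal RNA and sequenced, to ask which RNAs RIG-I holds once OSGEP is low. A gene's value is thus its share of the recovered RNA, in CPM, the count scaled to the total of its library. A lower transcript level in the cells and less of the transcript held by RIG-I cannot be told apart, since total RNA of the lysate was not analysed here. None of the libraries is a pulldown from cells without FLAG-RIG-I, so RNA recovered without being bound is not separated either. The hour of harvest is not given in the sources used here.

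The libraries of shCtr held 40333037, 47750758 and 41805753 counts on genes and those of shOSGEP#1 34551436, 50224299 and 30697653, in the order of the replicates. Those of shOSGEP#2 held 25460689, 568995 and 14914731. The second of these libraries was shallow, with 4196 genes detected against 11733 to 13958 in the other 8, and its values are given apart. Comparisons below use the other 8 libraries (3 shCtr, 3 shOSGEP#1 and 2 shOSGEP#2) in 1 edgeR fit of 12744 genes. In shOSGEP#1 replicate 3, mitochondrially encoded genes took 2.96% of the counts, against 0.147% to 0.633% in the other 8 libraries.

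Osgep itself stood at 19.1, 19.9 and 15.5 CPM in shCtr, at 3.76, 1.15 and 1.53 CPM with shOSGEP#1, and at 0.0786 CPM (2 counts) and 2.88 CPM in replicates 1 and 3 of shOSGEP#2. Every knockdown library was below every control library. The log2 fold change was −3.10 (SE 0.73) for shOSGEP#1 and −3.84 (SE 0.93) for shOSGEP#2, with adjusted p-values of 0.0128 and 0.0150, above the threshold of 0.01. These come from the quasi-likelihood test of edgeR after Benjamini-Hochberg adjustment over all genes tested, and measure the spread between libraries. Ddx58, which encodes RIG-I, differed by a log2 fold change of 0.26 (adjusted p 0.427 in the same edgeR test) and 0.86 (adjusted p 0.0239). With shOSGEP#2 it passed with DESeq2 (adjusted p 0.00283) and, in edgeR, without a filter (0.00727) and without shCtr replicate 3 (0.00898). In other alternatives its adjusted p reached 0.958. Its counts include any from the FLAG-RIG-I construct that match the mouse gene.

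Bhlhe41 had the highest CPM of the repressors in the RNA recovered with FLAG-RIG-I from control cells. Its level was 398, 417 and 417 CPM in shCtr, 98.3, 83.6 and 73.2 CPM with shOSGEP#1, and 90.5 and 102 CPM with shOSGEP#2. The control libraries lay close together, the 5 knockdown libraries lay far below them, and the ranges of the 2 shRNAs overlapped. The log2 fold change was −2.29 (SE 0.15) for shOSGEP#1 and −2.19 (SE 0.17) for shOSGEP#2, that is 4.88-fold and 4.57-fold lower, and the difference between the 2 shRNAs was 0.09 (SE 0.16). In the shallow library Bhlhe41 had 57 counts, or 100 CPM (exact 95% interval 75.9 to 130), which falls within the range of the other knockdown libraries.

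Bhlhe40, the paralogue of Bhlhe41 that binds the same E-boxes, had another pattern. It stood at 55.5, 63.6 and 68.9 CPM in shCtr, at 75.0, 65.9 and 52.5 CPM with shOSGEP#1, and at 27.5 and 44.3 CPM with shOSGEP#2. The shOSGEP#1 libraries overlapped the controls, and both shOSGEP#2 libraries were below all of the other 6. The log2 fold change was 0.03 (SE 0.20) for shOSGEP#1 and −0.91 (SE 0.23) for shOSGEP#2. The low position with shOSGEP#2 holds for those 2 libraries, because in the shallow library Bhlhe40 was at 134 CPM (76 counts, exact 95% interval 105 to 167), above every control.

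Nr1d1 and Nr1d2 encode REV-ERBα and REV-ERBβ, the heme-binding nuclear receptors that repress Arntl. Nr1d1 was at 10.8, 9.13 and 10.5 CPM in shCtr, at 27.0, 27.4 and 29.6 CPM with shOSGEP#1, and at 31.9 and 21.2 CPM with shOSGEP#2. Nr1d2 was at 48.7, 58.7 and 59.6 CPM in shCtr, at 92.4, 80.0 and 88.4 CPM with shOSGEP#1, and at 113 and 138 CPM with shOSGEP#2. Both genes were higher in the 5 knockdown libraries of the comparisons than in any control, and for Nr1d2 both shOSGEP#2 libraries were also above all 3 of shOSGEP#1. In the shallow library Nr1d2 was above the controls too (107 CPM). Nr1d1 had 0 counts there (exact 95% interval up to 6.48 CPM), below the lowest control. The log2 fold change of Nr1d1 was 1.45 (SE 0.20) for shOSGEP#1 and 1.30 (SE 0.22) for shOSGEP#2. That of Nr1d2 was 0.63 (SE 0.15) and 1.07 (SE 0.16).

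Exons of Nr1d1 overlap those of Thra, a thyroid hormone receptor gene on the opposite strand, by 263 bases. The library kit keeps strand, but whether strand was used in counting is not given in the sources used here, so counts in the shared bases cannot be assigned with certainty. The same holds for Bhlhe41, which shares 855 exon bases with Gm43909 on the opposite strand, for Cry2 (149 bases with D930015M05Rik) and for Bhlhe40 (118 bases with 0610040F04Rik). These 3 partners are not among the genes counted. Thra itself was at 43.6, 38.4 and 34.9 CPM in shCtr, at 40.0, 41.3 and 42.1 CPM with shOSGEP#1, and at 84.1 and 99.0 CPM with shOSGEP#2. With shOSGEP#1 Thra overlapped the controls while Nr1d1 did not, and with shOSGEP#2 both genes were above them. Thra rose with shOSGEP#2 (log2 fold change 1.14, SE 0.16, adjusted p 0.000799 by edgeR, higher in 2 of 2 libraries), and its value for shOSGEP#1 was 0.07 (adjusted p 0.790).

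Dbp, the D-box activator of the list, was higher in the 5 knockdown libraries of the comparisons. Its level in controls lies within what 0 counts allow in the shallow library, which had none of it. It stood at 5.88, 5.13 and 4.98 CPM in shCtr, at 18.1, 15.0 and 16.1 CPM with shOSGEP#1, and at 20.7 and 38.4 CPM with shOSGEP#2. The 3 groups did not overlap, and the 2 shOSGEP#2 libraries differed more from each other than the 3 of shOSGEP#1 did. This gave log2 fold changes of 1.61 (SE 0.24) for shOSGEP#1 and 2.37 (SE 0.26) for shOSGEP#2. Dbp shares 539 exon bases with Sphk2 on the opposite strand. Sphk2, looked up for this overlap, was at 51.8, 50.8 and 49.8 CPM in shCtr, at 34.5, 37.9 and 44.4 CPM with shOSGEP#1 and at 57.9 and 61.6 CPM with shOSGEP#2, so with shOSGEP#1 it lay on the other side of the controls from Dbp.

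Among the Period genes, whose proteins pair with the cryptochromes, Per3 was at 3.32, 3.39 and 3.76 CPM in shCtr, at 8.57, 7.51 and 5.18 CPM with shOSGEP#1, and at 11.3 and 9.92 CPM with shOSGEP#2. All 5 knockdown libraries were above the controls, and both shOSGEP#2 libraries were above those of shOSGEP#1. Log2 fold changes were 1.01 (SE 0.29) for shOSGEP#1 and 1.51 (SE 0.32) for shOSGEP#2. Per2 was close to the limit of these libraries, with 27, 12 and 21 counts in shCtr, 37, 93 and 24 counts with shOSGEP#1, and 69 and 25 counts with shOSGEP#2. In CPM the 5 knockdown libraries (0.782 to 2.71) were above the controls (0.251 to 0.669), and its log2 fold changes of 1.37 (SE 0.70) and 2.12 (SE 0.77) had wider SEs than those of the other 9 genes. Over all alternatives they ran from 0.95 to 2.00 and from 1.69 to 2.52. Per1 differed from both: it ran from 28.0 to 32.7 CPM in shCtr, from 29.9 to 40.7 CPM with shOSGEP#1, and stood at 31.0 and 21.9 CPM with shOSGEP#2, and the groups overlapped in all 3 comparisons.

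Cry1 and Cry2 encode the cryptochromes, the strongest repressors of CLOCK and BMAL1 in the loop. Cry1 was at 32.5, 31.6 and 36.0 CPM in shCtr, at 25.3, 20.3 and 28.5 CPM with shOSGEP#1, and at 26.1 and 31.2 CPM with shOSGEP#2. All 5 knockdown libraries were below the controls, the nearest of them by a narrow margin, and the log2 fold changes were −0.45 (SE 0.18) and −0.32 (SE 0.20). Cry2 was at 14.3, 17.5 and 11.4 CPM in shCtr, at 10.1, 7.45 and 6.35 CPM with shOSGEP#1, and at 21.7 and 14.5 CPM with shOSGEP#2. It was below the controls with shOSGEP#1 and overlapped them with shOSGEP#2, where both libraries were above all 3 of shOSGEP#1. For Cry2 the log2 fold change was −0.87 (SE 0.27) for shOSGEP#1, 0.25 (SE 0.30) for shOSGEP#2 and 1.11 (SE 0.30) for shOSGEP#2 against shOSGEP#1.

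**Figure D1:**
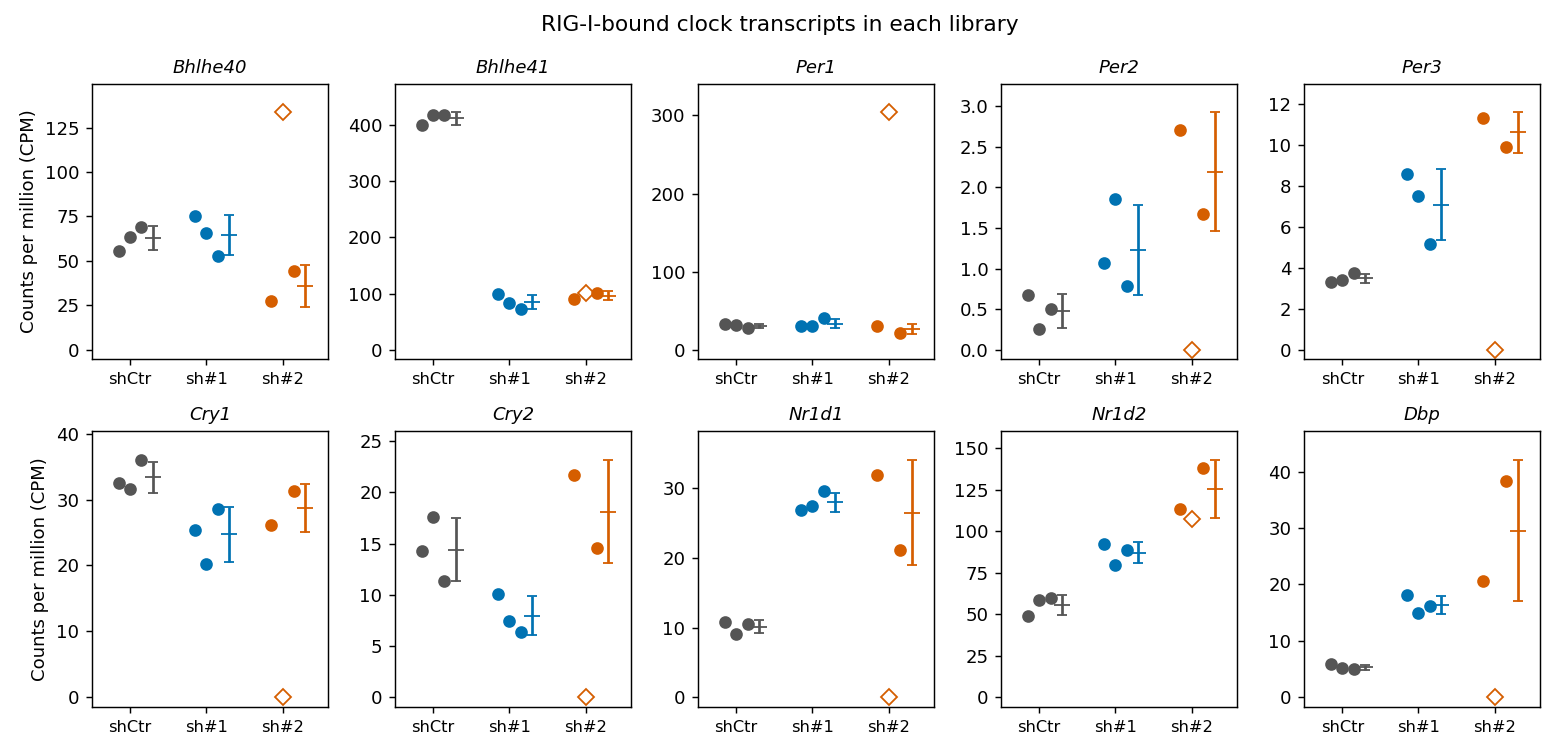
CPM (y axis) of the 10 genes in each library, for shCtr, shOSGEP#1 (sh#1) and shOSGEP#2 (sh#2), with the group mean and SD of the libraries in the comparisons beside the points. Open diamonds are the shallow library, shOSGEP#2 replicate 2, which is outside the mean. Bhlhe41 is low, and Nr1d1, Nr1d2, Dbp, Per2 and Per3 are high, in the 5 filled knockdown points against the 3 controls.

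Counted over the list, 5 of the 10 genes were above all controls, 3 were below and 2 overlapped with shOSGEP#1, and the numbers were the same with shOSGEP#2. Of all 12744 genes tested, 23.1% were above and 22.2% below the controls without overlap with shOSGEP#1 (45.3% together), and 28.7% and 23.6% with shOSGEP#2 (52.3% together). Past an adjusted p of 0.01 in edgeR were 3 of the 10 genes for shOSGEP#1 (9.67% of all genes tested), 5 for shOSGEP#2 (9.55%) and 0 for shOSGEP#2 against shOSGEP#1 (10.8%). By side these were 2 higher and 1 lower for shOSGEP#1, where 5.00% of all genes were higher and 4.67% lower. They were 4 higher and 1 lower for shOSGEP#2, where 5.66% of all genes were higher and 3.89% lower (721 and 496 genes, or 901 and 375 without TMM scaling). Between the shRNAs 6.23% of all genes were higher and 4.56% lower. At an unadjusted p under 0.05 were 7, 7 and 4 of the 10 in the 3 comparisons, beside 34.9%, 35.6% and 37.1% of all genes. Nothing is read from these counts, because the list was chosen from such contrasts, and the 2 knockdown comparisons share their control libraries. The median log2 fold change of the 10 genes was 0.37 for shOSGEP#1, 0.66 for shOSGEP#2 and 0.29 between the 2 shRNAs, beside medians over all genes of 0.00, −0.06 and −0.04.

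Scaled to the length of the longest protein-coding transcript, the order of levels in control cells was led by Bhlhe41, with 67.0 ± 1.76 CPM per kb (SD, n = 3), rank 1061 of 12637 genes with a length. Bhlhe40 followed with 20.1 ± 2.17 CPM per kb, then Nr1d2 with 11.9 ± 1.30 and Cry1 with 11.0 ± 0.772 CPM per kb, a pair that did not differ beyond its spread. Per1 had 6.60 ± 0.541 CPM per kb. Nr1d1 and Cry2, with 3.73 ± 0.330 and 3.62 ± 0.778 CPM per kb, did not differ beyond their spread either, and Dbp, with 2.90 ± 0.262 CPM per kb, lay within the spread of Cry2. Per3 and Per2 were lowest, with 0.582 ± 0.0387 and 0.0813 ± 0.0361 CPM per kb.

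The same scale gave another order in knockdown cells. With shOSGEP#1 Bhlhe40 (20.7 ± 3.64 CPM per kb, n = 3) and Nr1d2 (18.6 ± 1.36) stood at or above Bhlhe41 (13.9 ± 2.06), and the first 2 did not differ beyond their spread. With shOSGEP#2 Nr1d2 led with 26.9 ± 3.74 CPM per kb (SD, n = 2), followed by Dbp with 16.1 ± 6.82 and Bhlhe41 with 15.7 ± 1.31, which did not differ beyond their spread. The summed level of the 10 genes was 603, 638 and 641 CPM in shCtr, 386, 339 and 341 CPM with shOSGEP#1, and 377 and 423 CPM with shOSGEP#2. Without Bhlhe41 the sum of the other 9 was 204, 221 and 224 CPM in shCtr, 288, 255 and 268 CPM with shOSGEP#1, and 286 and 321 CPM with shOSGEP#2. In these 8 libraries the sum was thus lower in knockdown cells with Bhlhe41 counted and higher without it. The shallow library stood apart from these knockdown libraries, with 645 CPM for the 4 genes detected there, close to the highest control (641 CPM). Per1 alone was at 304 CPM. No interval was computed for this sum, which was 545 CPM without Bhlhe41.

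The other genes of the loop were taken from a list of 23 clock genes, of which 21 were tested and Npas2 and Rorb had too few counts. For shOSGEP#1 0 of 21 passed an adjusted p of 0.01 in edgeR, with 11 at an unadjusted p under 0.05, against 34.9% of all genes. DESeq2 on the same 8 libraries called 7 of 21 (20.0% of all genes), and voom with sample quality weights on all 9 libraries called 8 (26.9% of all genes). For shOSGEP#2 4 of 21 passed, 3 higher and 1 lower, with 10 at an unadjusted p under 0.05, against 35.6% of all genes. Without TMM scaling 5 passed, 5 higher and 0 lower, beside 1276 of all 12744 genes (901 higher and 375 lower). DESeq2 called 8, 5 higher and 3 lower (19.4% of all genes), and voom on all 9 libraries called 3 (8.20%). Their median log2 fold change was 0.08 and 0.07, beside 0.00 and −0.06 over all genes, and the shares of all genes past the threshold were 9.67% and 9.55%.

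Clock and Arntl encode the partners that the repressors act on. Clock was at 60.7, 60.0 and 54.3 CPM in shCtr, at 101, 104 and 89.3 CPM with shOSGEP#1, and at 149 and 103 CPM with shOSGEP#2. All 5 knockdown libraries were above the controls. Clock rose with shOSGEP#2 (log2 fold change 1.03, SE 0.18, adjusted p 0.00297 by edgeR, higher in 2 of 2 libraries), and with shOSGEP#1 its log2 fold change of 0.74 (SE 0.17) missed the threshold by a narrow margin, with an adjusted p of 0.0101. It passed with DESeq2 (0.000272), without TMM scaling (0.00769) and in other alternatives, over which the adjusted p ran from 0.000170 to 1.00. Arntl lay on the other side: it was at 24.7, 23.2 and 22.4 CPM in shCtr, at 14.6, 13.9 and 16.2 CPM with shOSGEP#1, and at 14.3 and 7.51 CPM with shOSGEP#2. All 5 knockdown libraries were below the controls, with log2 fold changes of −0.67 (SE 0.24, adjusted p 0.0681 by edgeR) and −1.18 (SE 0.28, adjusted p 0.0128), neither past the threshold. For shOSGEP#2 Arntl passed with DESeq2 (0.000557), with voom on all 9 libraries (0.00738), without a filter (0.00560) and without shOSGEP#2 replicate 1 (0.00195), and its adjusted p reached 0.811 in other alternatives. Without 1 library its log2 fold change ran from −1.77 to −0.78. For shOSGEP#1 it passed with voom (0.00231, and up to 1.00 in other alternatives).

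Nfil3 and Tef bind D-boxes as Dbp does, NFIL3 as a repressor and TEF as an activator. Nfil3 was at 24.0, 23.6 and 13.7 CPM in shCtr, at 15.8, 14.6 and 15.1 CPM with shOSGEP#1, and at 52.2 and 46.3 CPM with shOSGEP#2. It overlapped the controls with shOSGEP#1 and rose with shOSGEP#2 (log2 fold change 1.18, SE 0.24, adjusted p 0.00615 by edgeR, higher in 2 of 2 libraries). Tef was at 124, 127 and 137 CPM in shCtr, at 118, 117 and 84.0 CPM with shOSGEP#1, and at 71.6 and 82.3 CPM with shOSGEP#2. It fell with shOSGEP#2 (log2 fold change −0.85, SE 0.18, adjusted p 0.00752 by edgeR, lower in 2 of 2 libraries), a call lost without TMM scaling (adjusted p 0.0134). Hlf, the gene of another D-box activator, was at 2.55, 3.39 and 4.23 CPM in shCtr, at 5.38, 5.69 and 2.51 CPM with shOSGEP#1, and at 8.13 and 7.38 CPM with shOSGEP#2. With shOSGEP#2 Dbp and Hlf were thus above the controls and Tef below them, though the log2 fold change of Hlf (1.10, SE 0.43, adjusted p 0.0916 by edgeR) was not past the threshold.

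Wee1, a cell cycle kinase gene with E-boxes under clock control, was at 41.2, 50.5 and 67.6 CPM in shCtr, at 49.6, 48.0 and 46.5 CPM with shOSGEP#1, and at 118 and 158 CPM with shOSGEP#2. It rose with shOSGEP#2 (log2 fold change 1.28, SE 0.21, adjusted p 0.00189 by edgeR, higher in 2 of 2 libraries) and overlapped the controls with shOSGEP#1. Several of these calls rest on the number of libraries. Without 1 library at a time, Clock lost its call for shOSGEP#2 without shCtr replicate 1, 2 or 3 (adjusted p 0.0116, 0.0150 and 0.0130) or shOSGEP#2 replicate 1 (0.0200). Wee1 lost it without shCtr replicate 2 (0.0121) or shOSGEP#2 replicate 3 (0.0185). Nfil3 lost it without any 1 of 6 libraries (adjusted p 0.0113 to 0.0275) and Tef without any 1 of 7 (0.0106 to 0.0357). Over all alternatives the adjusted p of Clock ran from 3.24e-06 to 0.725, of Wee1 from 8.25e-07 to 0.661, of Nfil3 from 7.11e-05 to 0.921 and of Tef from 0.000191 to 0.811, the highest with all 9 libraries. Their directions for shOSGEP#2 held in every alternative run. In the shallow library itself, Clock (185 CPM) and Wee1 (545 CPM) were above the controls and Tef (0 counts, exact 95% interval up to 6.48 CPM) was below them. Nfil3 also had 0 counts there, where 28.0 were expected from the other 2 libraries of its group, which places it below the lowest control and opposite to its rise.

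**Figure D2:**
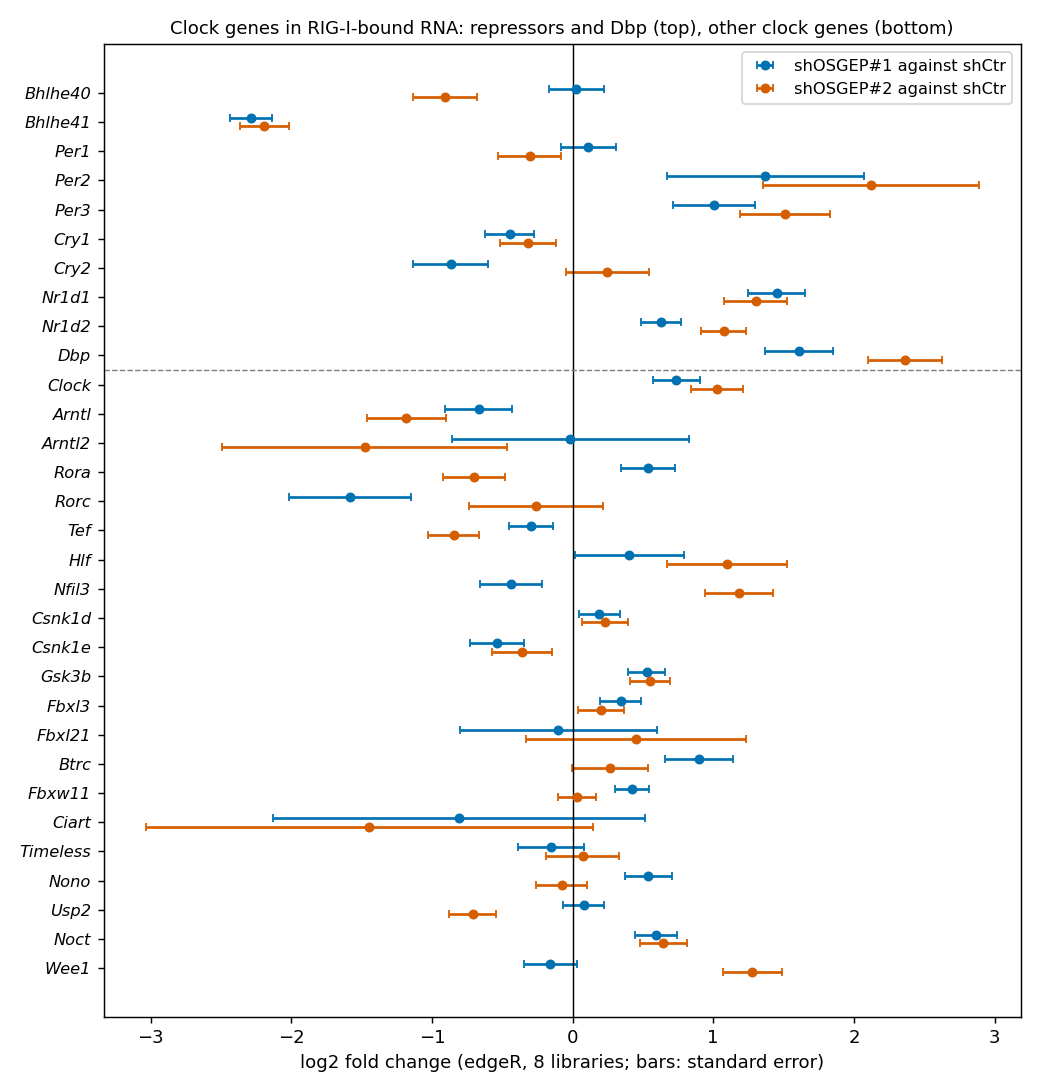
Log2 fold change (x axis, with the standard error as a bar) of the 10 listed genes above the dashed line and of the 21 other clock genes tested below it, for shOSGEP#1 and shOSGEP#2 against shCtr. Bhlhe41 is lowest for both shRNAs, at −2.29 and −2.19, and Dbp highest, at 1.61 and 2.37.

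The 2 shRNAs were compared with each other for the same 21 genes, of which 4 passed the threshold (10.8% of all genes tested). At an unadjusted p under 0.05 were 9, against 37.1% of all genes, with a median log2 fold change of 0.02 beside −0.04 over all genes. Nfil3 and Wee1 were higher with shOSGEP#2 than with shOSGEP#1, by log2 fold changes of 1.62 (SE 0.24, adjusted p 0.000926 by edgeR) and 1.43 (SE 0.21, adjusted p 0.000830). Rora, a ROR receptor gene, was at 30.0, 28.0 and 21.5 CPM in shCtr, at 35.4, 34.4 and 46.6 CPM with shOSGEP#1, and at 18.3 and 16.4 CPM with shOSGEP#2. Its shOSGEP#1 libraries were all above the controls and its shOSGEP#2 libraries both below, and it was lower with shOSGEP#2 than with shOSGEP#1 (log2 fold change −1.24, SE 0.23, adjusted p 0.00289 by edgeR, 0.0260 without shOSGEP#2 replicate 3, 5.11e-06 to 0.806 over all alternatives). Usp2, a deubiquitinase gene of the clock, was at 33.1 to 35.6 CPM in shCtr, 35.6 to 37.6 CPM with shOSGEP#1, and 23.3 and 21.1 CPM with shOSGEP#2. Its difference between the shRNAs (log2 fold change −0.79, SE 0.17, adjusted p 0.00745 by edgeR) missed the threshold without any 1 of the 8 libraries (0.0121 to 0.050, and 0.000166 to 0.832 over all alternatives).

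Of the 10 listed genes, 4 were higher with shOSGEP#2 than with shOSGEP#1 in every library (Cry2, Dbp, Nr1d2 and Per3), Bhlhe40 was lower in every library, and 5 overlapped. Of all genes tested, 27.1% were higher and 22.5% lower without overlap in this comparison, 49.6% together. Their log2 fold changes were 1.11 for Cry2, 0.76 for Dbp, 0.45 for Nr1d2, 0.51 for Per3 and −0.94 for Bhlhe40. Without shOSGEP#2 replicate 3 the value of Dbp was 0.29, and with all 9 libraries those of Dbp and Per3 were 0.26 and 0.09 in edgeR.

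The shallow library of shOSGEP#2 had counts for 4 of the 10 genes. Besides Bhlhe41 and Bhlhe40, these were Nr1d2 with 61 counts (107 CPM, exact 95% interval 82.0 to 138), which is above the controls, and Per1 with 173 counts (304 CPM, 260 to 353), far above the 21.9 to 40.7 CPM of the other 8 libraries. The other 6 genes had 0 counts, for which the exact interval reaches 6.48 CPM (the floor of 3 counts is 5.27 CPM), and these bounds cover counting error only. At the mean level of the other 2 shOSGEP#2 libraries, Dbp, Cry1, Nr1d1 and Cry2 would have had 16.8, 16.3, 15.1 and 10.3 counts at this depth, and Per3 and Per2 6.04 and 1.25. A 0 for Per2 was thus within what the depth allows, and the zeros of Dbp, Cry1, Nr1d1, Cry2 and Per3 lay below what the other libraries of the group had. For Nr1d1 the bound of 6.48 CPM is also below the lowest control (9.13 CPM), the side opposite to the other 5 knockdown libraries. It is below the lowest control of Cry1 (31.6 CPM) too, the same side as those 5 libraries. For Cry2, which overlapped the controls in the other libraries of shOSGEP#2, the bound is below the lowest control (11.4 CPM) as well.

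With all 9 libraries in the fit, edgeR called 0 genes for shOSGEP#1, for shOSGEP#2 and between them. Those at an unadjusted p under 0.05 numbered 620, 1240 and 1325. With sample quality weights limma's voom called 3317, 1012 and 933 on the same 9 libraries, and DESeq2 122, 349 and 413. The common dispersion was 0.420 with the shallow library and 0.0692 without it. In the edgeR fit of all 9, the log2 fold change for shOSGEP#2 was −2.34 for Bhlhe41, 0.86 for Nr1d2, 0.78 for Nr1d1, 1.86 for Dbp and 1.09 for Per3, beside −2.19, 1.07, 1.30, 2.37 and 1.51 without that library. It was 1.83 for Per2, −0.35 for Bhlhe40 and −0.84 for Cry1, beside 2.12, −0.91 and −0.32. Per1 moved from −0.31 to 1.33 and Cry2 from 0.25 to −0.24. The direction of Cry2 also turned without shOSGEP#2 replicate 1 (−0.11), and that of Per1 held without any 1 of the 8 libraries (−0.62 to −0.06).

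Levels of cell type markers differed between the groups. The summed level of 7 melanocyte markers was 6336, 6039 and 8473 CPM in shCtr, 6288, 7565 and 6840 CPM with shOSGEP#1, and 2617 and 3374 CPM with shOSGEP#2 (1664 CPM in the shallow library), with all 7 detected outside the shallow library and Tyrp1 most abundant there. With shOSGEP#1 the log2 fold change was −2.59 for Tyr and between −0.22 and 0.39 for the other 6 markers (Mitf lowest, Dct highest), and with shOSGEP#2 it was between −3.83 (Tyr) and −0.79 (Tyrp1) for the 7. The sum of 6 fibroblast markers was 6.03 to 9.36 CPM in shCtr, 9.78 to 11.0 CPM with shOSGEP#1, and 23.5 and 45.7 CPM with shOSGEP#2, with a narrow margin to the controls for shOSGEP#1, where Pdgfrb was higher and Col1a1 lower in the mean. Pdgfrb was most abundant in these 8 libraries, the shallow library had Col1a1 alone (68.5 CPM), and Lum was at 0 in all 9. Leucocyte markers (5 genes, at most 5.50 CPM, Cd68 or Lyz2 most abundant) and endothelial markers (3 genes, at most 2.18 CPM) were near 0, and of 3 keratinocyte markers Krt5 and Krt10 were at 0 in every library. The part of these markers in the differences of the clock genes was not tested. For the share of mitochondrial counts, the log2 fold changes with shOSGEP#1 without its replicate 3 were −2.19 for Bhlhe41, 1.41 for Nr1d1, 0.61 for Nr1d2, 1.62 for Dbp and 1.19 for Per3. They were 1.61 for Per2, −0.56 for Cry1 and −0.73 for Cry2, on the same side as with it, and 0.15 for Bhlhe40. Per1 turned from 0.11 to −0.05.

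Genes with a pattern across the 8 libraries most like that of Bhlhe41, by Pearson's r of log2 CPM over 10184 genes with a mean of at least 5 CPM, were Prkx (r = 0.99), Zfp787 (0.99), Ccser2 (0.99), Fam174b (0.99) and Epb41 (0.99). The most opposite were Prkce (−0.99), Bcar3 (−0.99), P3h2 (−0.99), Actr2 (−0.99) and Btbd7 (−0.99). Of the listed genes, Nr1d1 (−0.97), Dbp (−0.91), Nr1d2 (−0.86), Per3 (−0.85) and Per2 (−0.79) ran against Bhlhe41, and Cry1 (0.78) ran with it. Cry2 (0.43), Bhlhe40 (0.39) and Per1 (0.06) were nearer to 0. These values describe 8 points that share their groups, and carry no p-value.

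The promoters of the listed genes were searched for clock motifs. Clock genes are tied to such motifs in the loop described above, so matches are not independent of the choice of the list. RefSeq windows (build GRCm38.p6), from 250 bases before to 50 after a start, were found for 8 of the 10 genes, with 9 promoters in all. Bhlhe40 and Per2 were without an entry. Motifs were searched on both strands, and a match describes letters in the window. The E-box CACGTG, its own reverse complement, was in the windows of Bhlhe41, Per1 and Cry1, and in 7.15% of all 32851 promoters. The related letters CACGTT, read as AACGTG from the other strand, were in those of Cry1, Cry2 and Nr1d1, and in 4.68% of all. The D-box TTATGNAA (TTNCATAA) was in those of Per1 and Per3, and in 3.38% of all. The letters AGGTCA, read as TGACCT from the other strand, the core bound by REV-ERB and ROR receptors, were in those of Nr1d2 and Per1, and in 16.3% of all. Of the 23 other clock genes, 18 had a window. CACGTG was in those of 2 (Ciart and Tef) and CACGTT in that of 1 (Rorb). The D-box was in those of 2 (Noct and Timeless) and AGGTCA in those of 3 (Arntl, Clock and Nfil3).

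The E-box windows of Bhlhe41, Per1 and Cry1 are shown because these genes share the letters and differ in their values: Bhlhe41 far below the controls with both shRNAs, Cry1 a little below, and Per1 overlapping them. The E-box is in capitals. They lie on the minus strand at chr6:145865528-145865613 for Bhlhe41, the plus strand at chr11:69098743-69098828 for Per1 and the minus strand at chr10:85185069-85185154 for Cry1, each read 5′ to 3′ and upstream of the start.
Bhlhe41: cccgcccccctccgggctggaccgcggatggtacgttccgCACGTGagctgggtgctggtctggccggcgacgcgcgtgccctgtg
Per1: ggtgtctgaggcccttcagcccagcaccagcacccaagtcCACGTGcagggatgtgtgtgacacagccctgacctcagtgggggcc
Cry1: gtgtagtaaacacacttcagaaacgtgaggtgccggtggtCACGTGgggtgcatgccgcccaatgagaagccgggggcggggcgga

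The D-box windows of Per3 and Per1 are shown beside the values of Dbp, since DBP binds this element. The D-box is in capitals, and Per3 holds 2 copies. They lie on the minus strand at chr4:151044776-151044910 for Per3 and on the plus strand at chr11:69098885-69098948 for Per1, upstream of the start.
Per3: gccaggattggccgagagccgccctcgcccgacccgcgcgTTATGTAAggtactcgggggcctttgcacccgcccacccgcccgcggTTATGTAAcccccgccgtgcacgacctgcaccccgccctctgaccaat
Per1: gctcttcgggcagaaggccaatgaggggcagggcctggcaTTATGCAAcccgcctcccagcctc
Of these 2 genes, Per3 was above the controls in the 5 knockdown libraries of the comparisons, as Dbp was, and Per1 overlapped them. In the shallow library Dbp and Per3 had 0 counts, with 16.8 and 6.04 expected, and Per1 was at 304 CPM. Of the other clock genes with a D-box, Noct was above the controls with both shRNAs in the comparisons and Timeless overlapped them. A part of DBP in these values was not tested.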

How the data were processed

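RNA recovered with FLAG-RIG-I was measured in 9 libraries, grouped by their labels. Per the labels and methods, reads were trimmed with Trim Galore, mapped with STAR on GRCm39 and counted per gene with Salmon. The values are raw: the authors deposited whole-number counts, not normalized. Salmon gives estimates with decimals, so a rounding step lies before the deposit. Of 22396 Ensembl identifiers, 22237 were given a symbol, and transcript lengths and exon overlaps, from a GENCODE annotation of GRCm38. Coordinates are printed for RefSeq promoter windows (GRCm38.p6) only. Genes were tested with edgeR 4.0.16 in R 4.3.3 (TMM, filterByExpr, quasi-likelihood test with 1 coefficient per group, Benjamini-Hochberg over all genes, adjusted p under 0.01) on 8 libraries, and log2 CPM used a prior count of 2. A standard error is the log2 fold change over the square root of F. DESeq2 1.42.0 and limma 3.58.1 served as alternatives, beside other scalings, filters, sample sets and each library left out. The steps were tested on simulated data first. Of 200 genes simulated at a log2 fold change of 1, edgeR found 49, 9 and 5 in the 3 comparisons, and at 2 it found 162, 136 and 148, so a gene short of the threshold may still differ. Only these 200 genes were changed, while 1217 to 1375 genes passed in the data. The adjustment is less strict when more genes differ, so these numbers do not give the recovery in the data. Its false calls were 0 to 3, and those of DESeq2 8 to 13. Intervals are exact Clopper-Pearson, the floor is 3 counts, and both cover counting error only, since reads are not independent molecules. No 2 replicates were alike within sampling noise, and p-values measure the spread between independent experiments.

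The members and lists were chosen with earlier results of these data known. Named beside the 10 genes were Osgep, Ddx58, Thra, Clock, Arntl, any other listed clock gene past the threshold in 1 of 3 comparisons, and the 5 genes most like and 5 most opposite to Bhlhe41. Sphk2 was added after its overlap with Dbp was seen, and Hlf, Tyr and other markers after their values were seen. Values were tabulated and drawn with Python 3.11.15, pandas 2.3.3, scipy 1.17.1 and matplotlib 3.10.9.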

Additional observations from a re-analysis of the deposited data

Results flagged for a closer look

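Some clock genes, and Thra, which overlaps Nr1d1, differed between the 2 shRNAs by the test of that difference itself (edgeR). The log2 difference, shOSGEP#2 minus shOSGEP#1, was 1.62 for Nfil3, 1.43 for Wee1 and 1.07 for Thra, and −1.24 for Rora and −0.79 for Usp2.

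In the shallow library, which is outside the comparisons, some transcripts were above every shCtr library beyond the exact interval of their counts. Bhlhe40 stood at 134 CPM, Per1 at 304 CPM and Nr1d2 at 107 CPM. Of the other clock genes named, Clock stood at 185 CPM and Wee1 at 545 CPM, and Thra at 179 CPM. Other named genes had 0 counts in this library against the number expected from the other 2 libraries of its group. Among them were Ddx58 (236 expected), Tef (43.8), Nfil3 (28.0), Usp2 (12.6), Rora (9.87), Arntl (6.19) and Hlf (4.41). The cause was not tested.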

How the results depend on the processing

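The numbers of genes past the threshold were 1232, 1217 and 1375 for shOSGEP#1, shOSGEP#2 and between the shRNAs. They were 2419, 2405 and 2592 with DESeq2, 2797, 2674 and 2952 at an adjusted p under 0.05, and 0, 0 and 0 with all 9 libraries, with or without the replicate block (without it 620, 1240 and 1325 at an unadjusted p under 0.05, with it 407, 787 and 842). With all 9 they were 3317 for shOSGEP#1 with voom quality weights (1012 and 933 for the others) and 122, 349 and 413 with DESeq2. Without the shallow library, 737 passed between the shRNAs when only those 2 groups were fitted. Without 1 library they ran from 318 to 1458, 518 to 1471 and 743 to 1504. For shOSGEP#2 721 were higher and 496 lower, and 901 and 375 without TMM. DESeq2 and the replicate block on all 9 libraries were added after seeing the data.

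Other clock genes past the threshold numbered 0, 4 and 4. For shOSGEP#1 they were 7 with DESeq2 or at 0.05, 8 with voom, 3 without a filter, 2 with the replicate block and 1 with RLE, without TMM, with at least 10 counts in every library, or with the 2 groups alone. For shOSGEP#2 they were 8 with DESeq2, 9 at 0.05 and, with all 9 libraries, 0 by edgeR, 2 by DESeq2 and 0 with the block. Between the shRNAs they were 2 with voom or the 2 groups alone and, with all 9 libraries, 0 by edgeR, 1 by DESeq2 and 0 with the block. Without 1 library they ran from 0 to 1, 0 to 4 and 2 to 4. Beside the counts for shOSGEP#1, 1748 of 15710 genes passed without a filter, 1256 of 12744 with RLE and 1254 of 12744 without TMM. With at least 10 counts 1360 of 10965 genes passed, with the 2 groups alone 1495 of 12274 and with the block 1380 of 12744. At 0.05 they were 2797 of 12744, with DESeq2 2419 of 12119 and with voom 3317 of 12337. Beside the counts for shOSGEP#2, 2405 of 12416 genes passed with DESeq2 and 2674 of 12744 at 0.05. Between the shRNAs 933 of 12337 passed with voom and 737 of 12344 with the 2 groups alone.

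The median of the 10 listed genes, 0.37, 0.66 and 0.29, ran without 1 library from 0.34 to 0.44, 0.41 to 0.76 and 0.21 to 0.36. Between the shRNAs it was 0.37 without TMM and, with all 9 libraries, 0.17 by edgeR, 0.12 by DESeq2 and −0.10 with the replicate block. No listed gene changed direction, under any alternative run, in a comparison where it was past the threshold. The list and the threshold both come from these data, so nothing is read from this, and turns in other comparisons are given below.

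The calls of Osgep given here are from alternatives that left out no further library. For shOSGEP#1 it passed the threshold without a filter (−3.10), at 0.05 (−3.10), with voom (−3.46) and with the 2 groups alone (−3.11). For shOSGEP#2 it passed with DESeq2 (−3.72 with 8 libraries, −4.07 with 9), without a filter (−3.84) and at 0.05 (−3.84). Without 1 library it ran from −3.77 to −2.79, from −7.86 to −2.78 and, between the shRNAs, from −4.75 to 0.32, the last without shOSGEP#2 replicate 1. Without shOSGEP#2 replicate 3 the only library of that group has 2 counts, under the floor, so −7.86 and −4.75 are no bounds. With shOSGEP#1 Wee1 ran from −0.32 to 0.0588 without 1 library and Thra from −0.00380 to 0.147, each turning without shCtr replicate 3. Between the shRNAs Clock ran from −0.0376 to 0.56, turning without shOSGEP#2 replicate 1. Directions also turned, with all 9 libraries, for Sphk2 with shOSGEP#2 (−0.31, −0.32 by DESeq2, −0.51 with the block), for Ddx58 with shOSGEP#2 (−0.19 with the block), and between the shRNAs for Ddx58 (−0.0354 by DESeq2, −0.43 with the block) and Sphk2 (−0.10 with the block). None of these was past the threshold in the fit of the 8 libraries. Their causes were not tested.

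With the replicate number as a block, 1380, 1238 and 1393 genes passed, and Tef with shOSGEP#2 (adjusted p 0.0146 by edgeR) and Usp2 between the shRNAs (0.0146) lost their calls, and Clock with shOSGEP#1 gained one (0.00578). On all 9 libraries the block turned Dbp (−0.14) and Per3 (−0.14) between the shRNAs, and with shOSGEP#2 it gave 0.41 for Nr1d1 and −1.26 for Cry1. Deviations of libraries with the same number had a mean r of 0.08 over 7 pairs (−0.00 to 0.18), so the numbers were not treated as pairs. Where a library left out leaves 1 in a group, that library is taken to vary as the other groups do. The wider E-box CACGNG was in 27.5% of promoters and in those of 7 listed genes. For named genes outside the list, Osgep apart, 28 results passed and 64 lost the threshold, and 10 turned direction, as given above. Listed genes also turned in some of 19 settings. With shOSGEP#1 these were 2 for Bhlhe40 and 2 for Per1, and with shOSGEP#2 4 for Cry2 and 3 for Per1. Between the shRNAs they were 4 for Bhlhe41, 3 each for Cry1 and Per1, and 1 each for Dbp, Nr1d1 and Per3.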
